A study of Mus musculus with 3 samples.

Results

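The genes described here are 10 components of the intracellular TGFβ pathway: the signal-carrying Smads Smad2, Smad3 and Smad4, the inhibitory Smad7, the membrane inhibitors Pmepa1 and Ldlrad4, the corepressors Ski and Skil, and the ubiquitin ligases Smurf1 and Smurf2. They were chosen by name, as every probe set whose only gene symbol was one of the 10. All 10 were represented, by 26 of the 34945 probe sets with a single gene symbol, and they make up 10 of 18193 named genes.

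RNA came from CD4+CD25- T cells of spleen and lymph node, taken from female BALB/c mice, 6 to 8 weeks old, that lacked both Stat6 and T-bet, the transcription factors through which Th2 and Th1 cells form. Cells with these genes intact were not analysed here, so every value below is from double-deficient cells. The cells were activated for 2 days on plate-bound anti-CD3 (5 µg/ml) with anti-CD28 (1 µg/ml). The cytokines were IL-6 with TGFβ (10 and 5 ng/ml), IL-6 with IL-23 (10 ng/ml each) or TGFβ alone (5 ng/ml), and each of these 3 conditions was hybridized to 1 Affymetrix mouse array. The labels give neither the number of mice behind an array nor the exons deleted. The study set IL-6/TGFβ against TGFβ to find genes of Th17 polarization, and against IL-6/IL-23 to separate IL-10 regulation from IL-17 regulation.

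TGFβ binds a receptor complex whose type I chain phosphorylates Smad2 and Smad3. These then join Smad4, enter the nucleus and bind DNA with partner factors. The pathway limits itself: Smad7, Skil and Pmepa1 are known as genes that TGFβ signalling switches on and whose products dampen it. In CD4 T cells, TGFβ favours Foxp3+ regulatory cells, and together with IL-6 it favours Th17 cells.

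With 1 array per condition there is no replicate check, and no p-value was computed. Levels are quantile-normalized intensities in arbitrary units, given in the order IL-6/TGFβ, IL-6/IL-23, TGFβ, and they cannot be set against each other between genes. The floor, taken as background, is an intensity of 59.1: the 95th percentile of 66 probe sets for liver, muscle, lens, testis and similar genes. Values under it were set to it, and where this was done on 1 of the arrays compared, the true ratio may be wider and is written as "at least". A gene was called 2-fold apart when the ratio reached 2-fold and its brighter value exceeded the floor. The error available is the spread of log2 ratios between probe sets of the same gene, with an SD of 0.22 for IL-6/TGFβ over TGFβ, 0.29 for IL-6/TGFβ relative to the IL-6/IL-23 array and 0.30 for IL-6/IL-23 relative to TGFβ. It leaves out differences between cultures, mice and arrays.

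The arrays differed in overall brightness as deposited, with median intensities of 28.1, 17.8 and 35.8, lowest with IL-6/IL-23. All 8 measured T cell markers of a list of 11, Cd3e and Cd4 among them, were above the floor on every array. Their summed level was 19409, 26886 and 19276, a sum that weighs bright probe sets most. For IL-6/IL-23 relative to TGFβ, 1 of the 8 was called higher, Cd28 (5316 against 1770), beside 3.52% of all genes, and 0 lower. Cd5 read 7804 against 4394, while Cd3e (1351 against 1850) and Cd4 (904 against 1333) read lower with IL-6/IL-23. All 4 measured B cell and all 5 fibroblast markers were below the floor on all 3 arrays. Of 5 measured CD8 T and NK cell markers, Cd8a and Cd8b1 were above it on each array and Eomes on the IL-6/IL-23 and TGFβ arrays, with summed levels of 245, 387 and 413. Of 7 myeloid markers, Csf1r exceeded it on the IL-6/TGFβ and TGFβ arrays and Mpeg1 on the TGFβ array, with sums of 227, 171 and 318. Any part of these other cells in the results below was not tested. In RNA from whole cultures, fewer cells of a type and less RNA per cell cannot be told apart.

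In 7 of the 10 genes (Smad2, Smad7, Pmepa1, Ldlrad4, Ski, Skil and Smurf1) the brightest probe set read lowest with IL-6/IL-23. The share of all genes that read lowest on that array was not counted. The IL-6/IL-23 culture differed from IL-6/TGFβ both by the missing TGFβ and by the added IL-23. From TGFβ alone it differed by IL-6 as well. These differences cannot be told apart here, and none was tested on its own. Over IL-6/IL-23, 6 of the 10 genes were called higher in IL-6/TGFβ cells (Smad2, Smad7, Pmepa1, Ldlrad4, Ski and Skil) and 0 were lower, where 3.88% of the 9221 genes tested were higher by this rule, 3.41% lower and 7.29% called in either direction. The median log2 ratio of the members was 1.20, against -0.04 for all genes tested. With IL-6/IL-23 relative to TGFβ, 4 members were at least 2-fold lower (Pmepa1, Ldlrad4, Ski and Skil) and 0 were higher, where 3.37% of 9142 genes were lower, 3.52% higher and 6.89% called in either direction, and the medians were -0.72 for the members and 0.06 for all genes. Both comparisons use the IL-6/IL-23 array, so they are not independent. With IL-6/TGFβ over TGFβ, 2 members were at least 2-fold higher (Smad3 and Ldlrad4) and 0 were lower, where 2.77% of 9070 genes were higher, 2.11% lower and 4.87% called in either direction, with medians of 0.35 and 0.02.

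**Figure D1:**
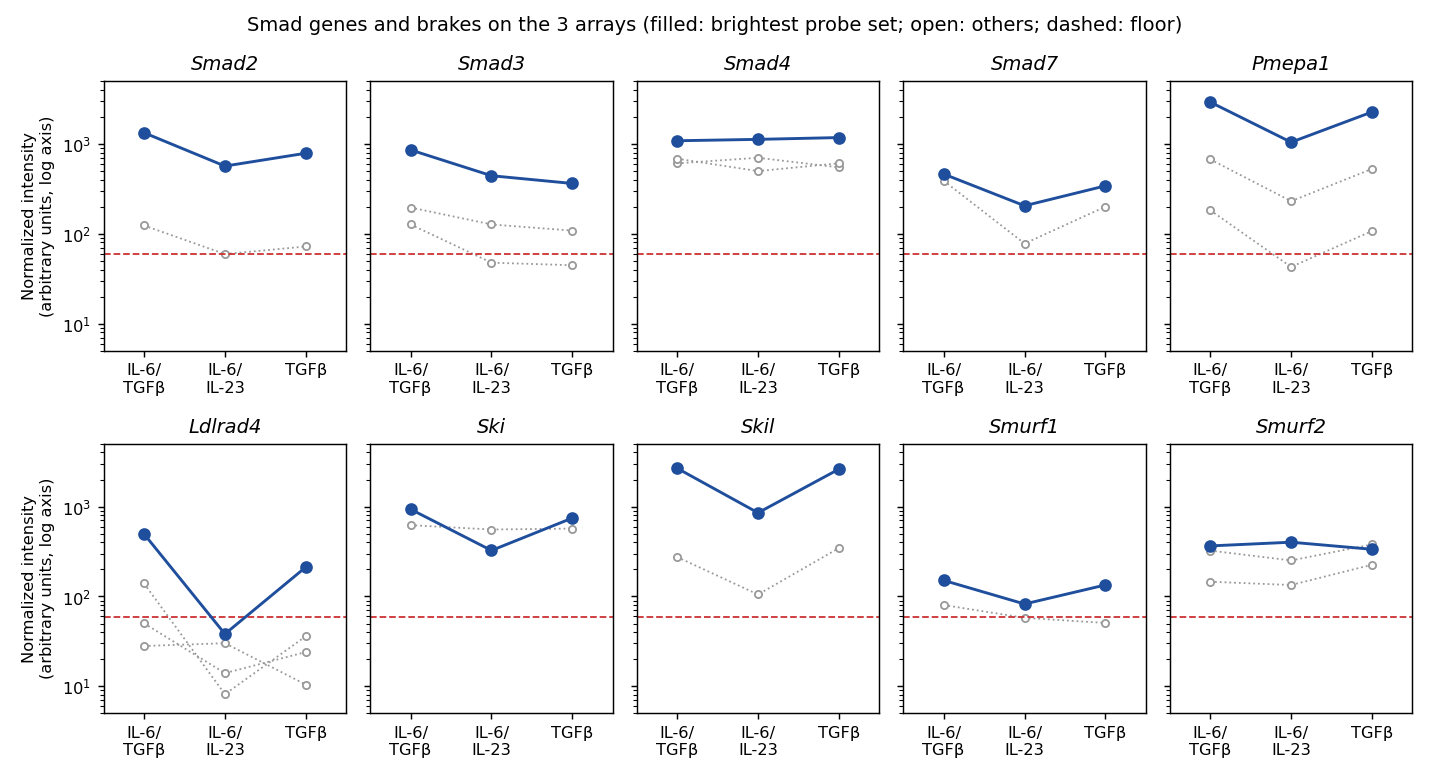
Normalized intensity (arbitrary units, log axis) of each of the 10 genes on the IL-6/TGFβ, IL-6/IL-23 and TGFβ arrays, 1 array each, with the brightest probe set filled and joined by a solid line, the others open with dotted lines, and the floor of 59.1 dashed. Pmepa1, Ldlrad4 and Skil dip on the IL-6/IL-23 array, Smad4 is level, and Smad3 is highest on the IL-6/TGFβ array.

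The signal-carrying Smads did not move as 1 group. Smad3, 1 of the pair of Smads that the TGFβ receptor phosphorylates, read 856 with IL-6/TGFβ, 442 with IL-6/IL-23 and 363 with TGFβ. The IL-6/TGFβ array stood above both others, which lay close together: the log2 ratio was 1.24 over TGFβ and 0.95 over IL-6/IL-23, and between IL-6/IL-23 and TGFβ it was 0.29, less than the probe-set SD of 0.30. Of 9070 genes tested, 156 had a higher ratio over TGFβ than Smad3.

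Its other probe sets were dimmer and showed the same order of the arrays above the floor. One read 196, 127 and 108, or 0.85 over TGFβ and 0.63 over IL-6/IL-23. The other read 127 with IL-6/TGFβ and was below the floor on the remaining arrays, so the ratio was at least 2.15-fold over each. Smad3 therefore passed 2-fold over TGFβ in 2 of its 3 probe sets, and over IL-6/IL-23 its brightest probe set, at 1.94-fold, lay just under the threshold.

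Smad2, the other Smad phosphorylated by the receptor, read 1330.1, 566 and 787. It was 2.35-fold higher with IL-6/TGFβ than on the IL-6/IL-23 array (log2 1.23) and 1.69-fold higher than with TGFβ (0.76). The IL-6/IL-23 level lay 0.47 below that with TGFβ, 1.57 times the probe-set SD. A further probe set read 124, 59.4 and 72.2 and gave 1.06, 0.78 and -0.28 for the same comparisons, so it put the arrays in the same order.

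Smad4, the shared partner that takes phosphorylated Smad2 and Smad3 to DNA, read 1083, 1122 and 1175. Its 3 log2 ratios lay between -0.12 and -0.05, all smaller than the probe-set SD. Its other probe sets gave ratios between -0.29 and 0.46 and did not share an order of the arrays. Smad2 and Smad3, but not Smad4, were thus highest on the IL-6/TGFβ array in every probe set above the floor. The 250 bases before the annotated start of Smad3 (RefSeq, GRCm38.p6, chr9:63757995-63758244, minus strand) are shown because Smad3 is the signal-carrying Smad that differed most over TGFβ. They were searched on both strands for GTCTAGAC and CAGACA, sequences of the kind Smad3 and Smad4 bind, and for GGCGC, the core of a GC-rich Smad site; capitals would mark a match.
Smad3: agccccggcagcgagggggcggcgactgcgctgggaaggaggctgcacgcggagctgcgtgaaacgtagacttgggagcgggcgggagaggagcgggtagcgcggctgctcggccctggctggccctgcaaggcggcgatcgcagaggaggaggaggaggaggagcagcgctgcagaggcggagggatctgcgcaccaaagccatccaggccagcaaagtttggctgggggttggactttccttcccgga
None of these letters occurred in this window. Among 32851 mouse promoter windows of this length, 0.167% held GTCTAGAC, 17.1% CAGACA and 32.0% GGCGC.

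Of the 3 membrane and receptor brakes (Smad7, Pmepa1 and Ldlrad4), all were called higher for IL-6/TGFβ relative to the IL-6/IL-23 array, beside 3.88% of all genes. For IL-6/IL-23 relative to TGFβ, Pmepa1 and Ldlrad4 were called lower, beside 3.37% of all genes. Ldlrad4, a transmembrane protein that binds Smad2 and Smad3 and keeps them from the receptor, had the widest range of the members. It read 496 with IL-6/TGFβ, was under the floor in IL-6/IL-23 cells, and read 212 with TGFβ. As deposited, before any scaling, the intensities were 496, 25.7 and 296. Its level with IL-6/TGFβ was at least 8.39-fold that in IL-6/IL-23 cells, a bound exceeded by 21 of 9221 genes, and 2.34-fold higher than with TGFβ (log2 1.22). With IL-6/IL-23 it was at least 3.59-fold lower than with TGFβ.

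These values rest mainly on 1 probe set of Ldlrad4. A further probe set read 139 with IL-6/TGFβ and was below the floor on both other arrays, a ratio of at least 2.36-fold over either. The remaining 2 of its 4 probe sets were below the floor on all 3 arrays and have no order. With the mean of all 4 probe sets in place of the brightest, Ldlrad4 exceeded the floor only with IL-6/TGFβ and its bound was 0.75 on the log2 scale, so it was no longer called.

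Pmepa1, a relative of Ldlrad4 that likewise competes for Smad2 and Smad3 and binds Nedd4-type ubiquitin ligases, read 2918, 1043 and 2263. It was 2.80-fold higher with IL-6/TGFβ than on the IL-6/IL-23 array (log2 1.48) and 2.17-fold lower with IL-6/IL-23 than with TGFβ (-1.12). Its 3 probe sets moved together. A dimmer one read 672, 230.4 and 527, for ratios of 1.54 and -1.19, and the third read 183 and 107 with IL-6/TGFβ and TGFβ and was below the floor with IL-6/IL-23. IL-6/TGFβ over TGFβ gave 0.35 to 0.77 in these 3 probe sets, under 2-fold in each.

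Smad7, the inhibitory Smad that occupies the activated receptor and brings Smurf ligases to it, read 462, 205 and 341. The log2 ratio was 1.17 over IL-6/IL-23 and 0.44 over TGFβ, and IL-6/IL-23 stood 0.74 below TGFβ. A probe set of a kind that can bind related transcripts, marked by the manufacturer's suffix x, read 389, 77.8 and 200.4. It kept the order of the arrays with larger ratios, 2.32, 0.96 and -1.36. Smad7 thus passed 2-fold for IL-6/IL-23 relative to TGFβ in 1 of its 2 probe sets, and with their mean (-1.05).

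**Figure D2:**
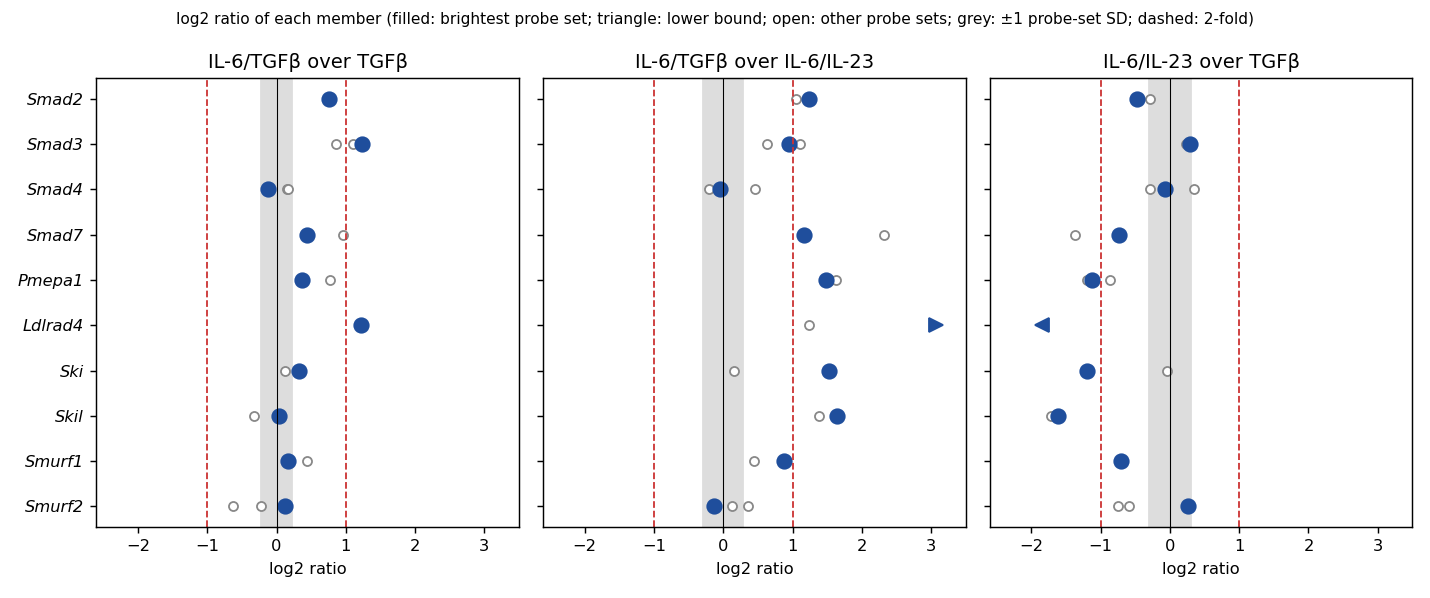
The log2 ratio of each gene in the 3 comparisons, with the brightest probe set filled (a triangle where 1 array was at the floor, so that the value is a lower bound), other probe sets open (at their bound where 1 array was at the floor), 1 probe-set SD to either side of 0 in grey and 2-fold dashed. In IL-6/TGFβ relative to the IL-6/IL-23 array, 6 filled symbols lie beyond 2-fold on the higher side and 0 on the lower side; the open symbol of Ski lies at 0.16, far from its filled one at 1.52.

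Of the corepressor genes, Skil was at least 2-fold lower without added TGFβ than in either other culture in both of its probe sets, and Ski in 1 of 2. Skil encodes SnoN, which holds Smad complexes in a repressed state and is broken down when the pathway is active. It read 2667 with IL-6/TGFβ, 852 with IL-6/IL-23 and 2609 with TGFβ. The IL-6/TGFβ and TGFβ arrays differed by 0.03 on the log2 scale, less than the probe-set SD. The IL-6/IL-23 array was about 1.6 log2 units below each. IL-6/TGFβ was 3.13-fold higher than IL-6/IL-23 (1.65), and IL-6/IL-23 was 3.06-fold lower than TGFβ (-1.61). The other probe set of Skil read 275, 105 and 345, with ratios of 1.38 and -1.72, and -0.33 for IL-6/TGFβ over TGFβ.

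Ski, the founding member of the same corepressor family, read 933, 325 and 746 in its brighter probe set. This gave 1.52 for IL-6/TGFβ relative to the IL-6/IL-23 array, 0.32 over TGFβ and -1.20 for IL-6/IL-23 relative to TGFβ. Its other probe set read 621, 555 and 569 and gave 0.16, 0.13 and -0.03, all below the probe-set SD. The probe sets of Ski disagreed, and with their mean neither of its 2-fold calls held (0.84 and -0.62). The files do not say which transcripts each probe set detects. The 250 bases before the annotated start of Ski (RefSeq, GRCm38.p6, chr4:155222536-155222785, minus strand) are shown because its brighter probe set moved with Skil; capitals mark GGCGC or its reverse complement, and touching matches run together.
Ski: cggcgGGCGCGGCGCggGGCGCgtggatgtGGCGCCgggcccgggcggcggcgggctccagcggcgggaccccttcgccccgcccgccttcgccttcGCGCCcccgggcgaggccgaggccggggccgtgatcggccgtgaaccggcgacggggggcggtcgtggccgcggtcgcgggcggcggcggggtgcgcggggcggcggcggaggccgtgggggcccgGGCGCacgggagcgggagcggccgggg
This window held GGCGC 7 times over both strands, where GGCGCC counts once on each strand, and held neither GTCTAGAC nor CAGACA. Of mouse promoter windows, 32.0% held GGCGC at least once, and how many held it as often as Ski was not counted. The match is a description of the letters and was not tied to binding. Windows were searched for 4 members. Those of Smurf1 and Smurf2, which were not 2-fold apart, held GGCGC 4 and 6 times, and that of Smurf1 held CAGACA 1 time. No window was available for Skil and Pmepa1, and Smad2, Smad4, Smad7 and Ldlrad4 were left out by chromosome. Ski was thus the only member called higher over IL-6/IL-23 whose window was searched, and the windows say nothing about the others.

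Neither ubiquitin ligase was called 2-fold apart in any comparison after quantile normalization. Without scaling Smurf1 passed at 1.35 for IL-6/TGFβ relative to the IL-6/IL-23 array, or 0.93 minus the median of all genes. It also passed at -1.63 for IL-6/IL-23 relative to TGFβ, or -0.80. Both values are bounds, because its deposited IL-6/IL-23 intensity of 55.8 lay under the floor of 61.1 in that setting. Smurf1, which with Smad7 marks the receptor for degradation, read 151, 82.4 and 134. It stood at 1.83-fold over IL-6/IL-23 (log2 0.87), at 0.17 over TGFβ and at -0.70 for IL-6/IL-23 relative to TGFβ, so its order of arrays was that of Smad7 with no comparison past 2-fold. A further probe set was above the floor with IL-6/TGFβ alone, at 80.3.

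Smurf2, a close relative that also targets receptors and SnoN, read 365, 401 and 335. The 3 ratios of its brightest probe set lay between -0.14 and 0.26, each within 1 probe-set SD. Its other probe sets read 324, 251 and 379, and 146, 134 and 225. They were highest with TGFβ, where the brightest one was highest with IL-6/IL-23, and IL-6/IL-23 relative to TGFβ was -0.59 and -0.75 in them. No order of the arrays is given for Smurf2.

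**Figure D3:**
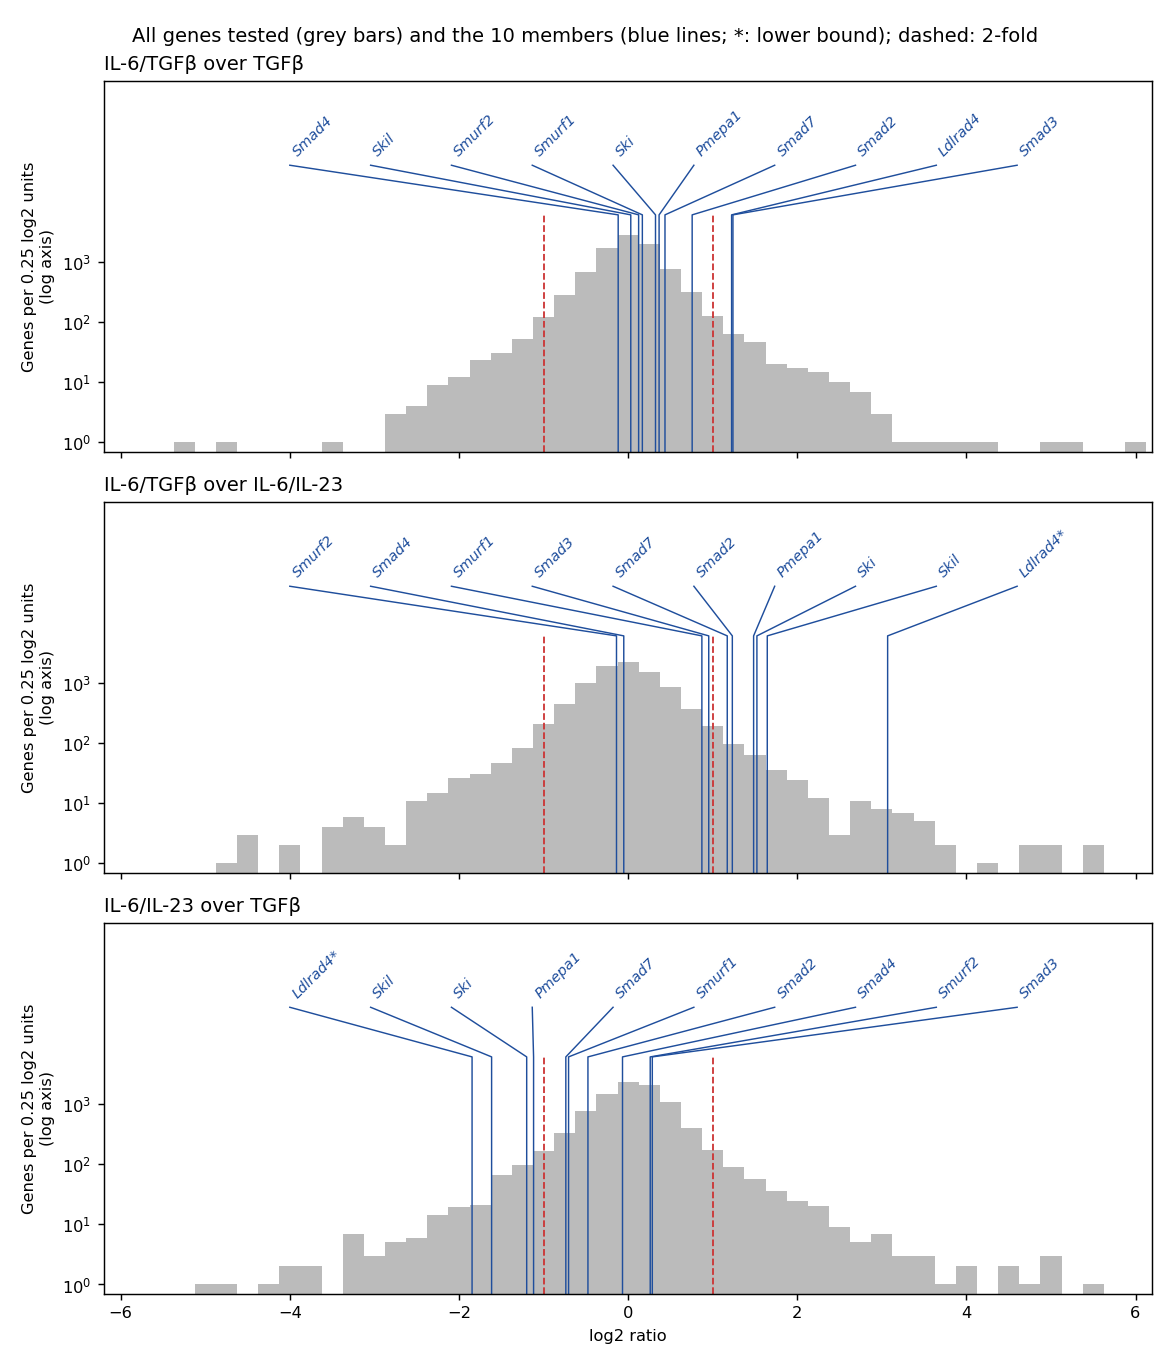
Number of genes per 0.25 log2 units (grey bars, log axis) by log2 ratio in each comparison, with the 10 members as blue lines (an asterisk marks a lower bound) and 2-fold dashed. In IL-6/TGFβ relative to the IL-6/IL-23 array, 8 of 10 members lie above 0, where the median of all genes is -0.04. Ldlrad4 is farthest out there at 3.07 or more. In IL-6/IL-23 relative to TGFβ, 8 of 10 lie below 0, where the median of all genes is 0.06.

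How many genes lay beyond each member shows where it stood among all genes tested. In IL-6/TGFβ relative to the IL-6/IL-23 array, 111 of 9221 genes had a higher ratio than Skil, 138 than Ski, 150 than Pmepa1, 219 than Smad2 and 247 than Smad7. In IL-6/IL-23 relative to TGFβ, 65 of 9142 genes had a lower ratio than the bound of Ldlrad4, 83 than Skil, 203 than Ski and 247 than Pmepa1. Farther from the tails, Smad4 had 4733 genes above it in the first of these comparisons and 5699 in the second. The brightest probe set of Smurf2 had 5515 and 2727 genes above it. In IL-6/TGFβ over TGFβ, 158 of 9070 genes had a higher ratio than Ldlrad4 and 428 than Smad2, and Skil, with 4420 genes above it, was near the median.

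Scaling bears on these directions because the array of the IL-6/IL-23 culture was dimmest as deposited. On intensities as deposited, the median of all genes tested moved to -0.42 for IL-6/TGFβ over TGFβ, 0.41 for IL-6/TGFβ relative to the IL-6/IL-23 array and -0.83 for IL-6/IL-23 relative to TGFβ. Relative to these medians, Skil stood at 1.65, Ski at 1.59, Pmepa1 at 1.51, Smad7 at 1.28 and Smad2 at 1.27 over IL-6/IL-23, near their normalized values. Smad3 and Ldlrad4 stood at 0.76 and 0.75 over TGFβ without scaling, under 2-fold, and at 1.17 and 1.16 relative to the median. In the same comparison Smad7, Pmepa1, Ski, Skil, Smurf1 and Smurf2 were at 0.03 to 0.44 after quantile normalization and between -0.42 and -0.03 without scaling, so their sign over TGFβ depends on the scaling of the whole array. Minus the median of all genes, Smad7 was at 0.41 after normalization and 0.38 without scaling, Pmepa1 at 0.34 and 0.33, Ski at 0.30 and 0.28, and Smurf1 at 0.15 and 0.14. Smurf2 was at 0.10 and 0.08, and Skil near 0 in both, so the change of sign was that of the median.

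**Figure D4:**
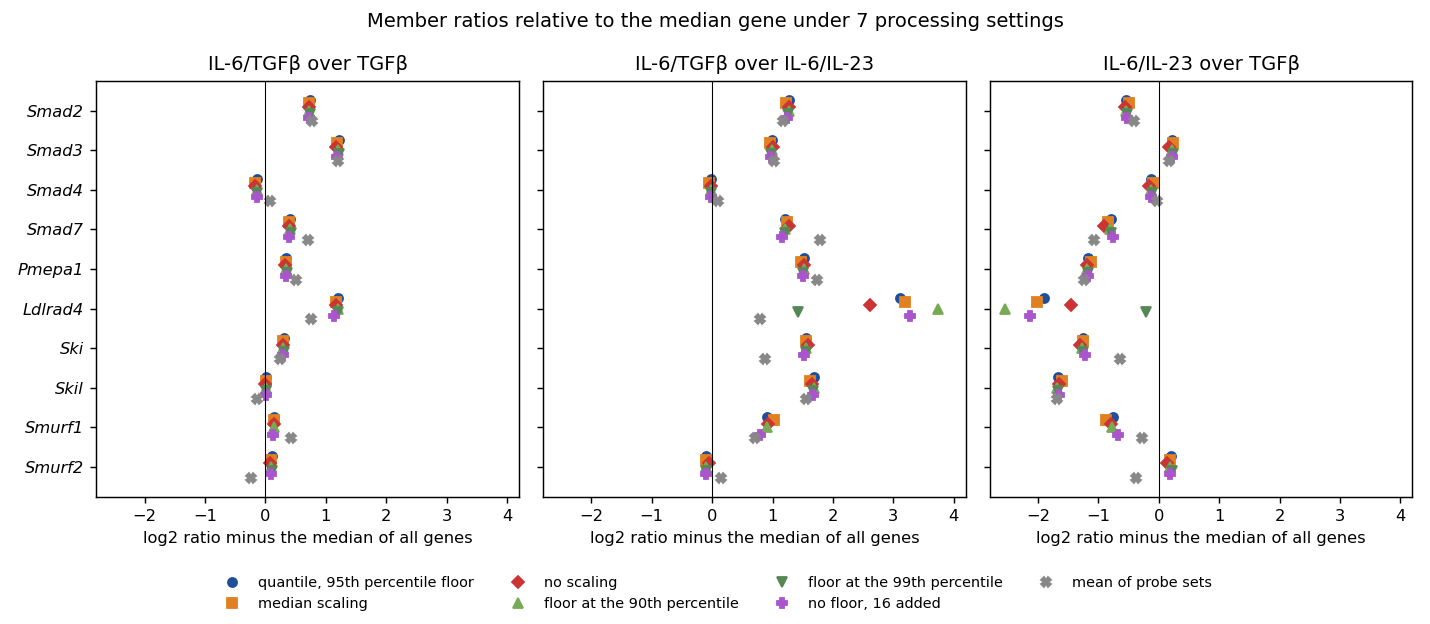
The log2 ratio of each member minus the median of all genes tested, in the 3 comparisons, under 7 settings of normalization, floor and probe-set choice (symbols). Smad2, Smad3, Smad7, Pmepa1, Ldlrad4, Ski and Skil stay above 0 under each of these settings for IL-6/TGFβ relative to the IL-6/IL-23 array. Smurf1 does so wherever it was tested. Smad4 and Smurf2 change side with the mean of probe sets. Ldlrad4 is spread between 0.79, with the mean of probe sets, and 3.73, with the floor at the 90th percentile. Ski stands at 0.88 with the mean of its probe sets.

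Other genes of the pathway, from lists of known components, mostly differed less than the brakes. Of 17 measured genes that control Smads through ubiquitin or phosphatases, 0 were 2-fold apart in any comparison. Among all genes tested, 4.87% were called for IL-6/TGFβ over TGFβ, 7.29% for IL-6/TGFβ relative to the IL-6/IL-23 array and 6.89% for IL-6/IL-23 relative to TGFβ. In a list of this size, 0 is near those shares. The medians of the 17 genes were 0.07, 0.06 and -0.11 in the same comparisons. The widest ratio among them was that of Nedd4, a ubiquitin ligase related to the Smurfs, at 274, 139 and 155 (0.98 over IL-6/IL-23). Of 10 tested nuclear partners and corepressors, 0 were 2-fold apart in any comparison, which is again near the shares of all genes. The acetyltransferase gene Ep300 read 413, 729 and 480 (-0.82 over IL-6/IL-23). The BMP pathway Smads Smad1 (407, 386 and 334) and Smad5 (224, 175 and 142) were not 2-fold apart, and Smad6 and Smad9 were below the floor on every array.

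At the receptor, Tgfbr1, the type I chain that phosphorylates Smad2 and Smad3, read 2387, 235 and 3297, lower with IL-6/IL-23 than on both other arrays (-3.81 over TGFβ). Tgfbr2, the chain that binds TGFβ first, read 1619, 835 and 1588 and was under 2-fold in each comparison. Acvr2a, an activin receptor, read 245 and 119 with IL-6/TGFβ and TGFβ and was below the floor with IL-6/IL-23. For IL-6/TGFβ relative to the IL-6/IL-23 array, 2 of 8 receptor-level genes tested were higher, beside 3.88% of all genes, and 0 lower (median 0.66). For IL-6/TGFβ over TGFβ, 1 of 9 was higher, Acvr2a (1.05), beside 2.77% of all genes, and 0 were lower (median 0.05). For IL-6/IL-23 relative to TGFβ, 0 of 9 were higher and 2 lower, Tgfbr1 and Acvr2a, beside 3.37% of all genes (median -0.12).

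Genes known to respond to TGFβ went both ways. Of 15 tested over IL-6/IL-23, 4 were higher with IL-6/TGFβ and 3 lower (median 0.49), beside 3.88% and 3.41% of all genes. The chemokine receptor Ccr8 read 538 and 868 with IL-6/TGFβ and TGFβ and was under the floor in IL-6/IL-23 cells, and Nt5e, an ectoenzyme gene, did the same at 456 and 498. Id3, an inhibitor of E proteins, read 71.1, 625 and 128, so it was highest with IL-6/IL-23. For IL-6/TGFβ over TGFβ, 1 of 15 was higher, Id2 (2704 against 710.4, 1.93), and 1 lower, Foxp3 (232 against 498, -1.10), with a median of -0.28, beside 2.77% and 2.11% of all genes. For IL-6/IL-23 relative to TGFβ, 3 were higher and 6 lower (median -0.87), beside 3.52% and 3.37% of all genes.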

How the data were processed

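Per the labels' protocols, biotinylated cRNA from 3 cultures was made by the Affymetrix procedure. The authors deposited an intensity on a linear scale for each probe set of each array; probe summarization, background correction and scaling are not stated in the labels or the file. After removal of the 64 control probe sets of 45101, log2 intensities were quantile-normalized, and probe sets were named from the platform annotation (34945 with 1 symbol, 932 with several, 9160 with none). Entrez identifiers of 34741 matched RefSeq (GRCm38.p6), which renamed 0. A gene stands for its brightest probe set on average, and every probe set of a member is given. With 1 array per condition no test was run, and the number of arrays limits the precision. The probe-set SD came from the median absolute deviation over 3656 to 3693 genes with 2 readable probe sets. The members, lists and settings were chosen with earlier results of these data known. Members are all named. From each pathway list, at most the 4 genes with the largest ratios in a given comparison are named. Cell markers are named as defining markers, or for their levels in the case of Cd5 and Cd28. Calls were tested on simulated data with planted changes larger than the threshold and noise set from the probe-set SD. That run checked the code and says nothing about differences between cultures or mice. Alternatives were median scaling, no scaling, floors at the 90th and 99th percentiles, an offset of 16, the mean of probe sets and a 1.5-fold threshold. Python 3.11.15, numpy 2.4.6, pandas 2.3.3 and scipy 1.17.1 were used. Promoter windows are the 250 bases before each RefSeq start.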

Additional observations from a re-analysis of the deposited data

How the results depend on the processing

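Median scaling, a floor at the 90th percentile and the offset of 16 gave the same member calls in all 3 comparisons, although median scaling moved the median of all genes to -0.20 for IL-6/TGFβ relative to the IL-6/IL-23 array and to 0.12 for IL-6/IL-23 relative to TGFβ. Of 176 member ratios recomputed, 132 moved by less than the probe-set SD, 44 by more, and 0 called ones changed sign. The 132 include 28 and 25 ratios under the floors at the 90th and 99th percentiles. Those ratios did not change at all, since a floor acts only on values below it. Of the 44, 29 came without scaling and 11 with the mean of probe sets. Without scaling, the members called numbered 0 for IL-6/TGFβ over TGFβ (median -0.11), beside 8.49% of all genes tested. They numbered 8 for IL-6/TGFβ relative to the IL-6/IL-23 array (median 1.69), beside 13.2%. For IL-6/IL-23 relative to TGFβ they numbered 7, all lower (median -1.68), beside 35.3%, and 3214 of 9337 genes were lower. The median of all genes moved in the same direction. With the mean of probe sets, IL-6/TGFβ over TGFβ called 1 member, Smad3, beside 4.76% of all genes tested. IL-6/TGFβ relative to the IL-6/IL-23 array then called 4, without Ski and Ldlrad4, beside 6.78%. IL-6/IL-23 relative to TGFβ called 3 (Smad7, Skil and Pmepa1), beside 6.42%. The member median there was -0.38, over 9 members because Ldlrad4 was below the floor on both arrays. A floor at the 99th percentile, an intensity of 188.6, lay just under the TGFβ level of Ldlrad4. The bound of Ldlrad4 for IL-6/IL-23 relative to TGFβ was then -0.17 and its call there was lost. In that comparison 3 members were called, beside 5.2% of genes tested.

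Over all genes, calls numbered 442, 672 and 630 in these 3 comparisons, or 4.87%, 7.29% and 6.89% of genes tested. Without scaling they numbered 801, 1179 and 3293 (8.49%, 13.2% and 35.3%). They numbered 236, 390 and 353 with the 99th percentile floor (3.51%, 5.71% and 5.2%). At 1.5-fold they numbered 1320, 1926 and 1751 (14.6%, 20.9% and 19.2%). The share of calls that were higher was 56.8%, 53.3% and 51.1%, against 15.4%, 89.1% and 2.40% without scaling and 44.8%, 37.7% and 54.3% with median scaling. No paired analysis was possible because each condition has 1 array. Ratios of members near the floor, such as Smurf1 and Ldlrad4, are limited by signal over background.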

Other observations

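Ldlrad4 had the widest range of the members over the arrays. Among 9337 genes above the floor on at least 1 array, the 5 whose centred log2 levels lay closest to those of Ldlrad4 were Spsb1, Sbk1, Tnfrsf13b, Prnp and Acsbg1 by Euclidean distance over 3 arrays. Spsb1 read 806 with IL-6/TGFβ, 88.4 with IL-6/IL-23 and 335 with TGFβ, and Sbk1 read 793, 109 and 340.2. Tnfrsf13b, a receptor of the TNF receptor superfamily, read 4908, 517 and 2367, and Prnp, the prion protein gene, read 2521, 239.5 and 1110.5. The IL-6/IL-23 values of Ldlrad4 and Acsbg1 were under the floor and entered at it, so the distances are not exact and no order among the 5 is given. With 3 arrays the likeness describes these arrays alone.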
